A study of Mus musculus with 20 samples.

Results

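The genes described here build ribosomes and make nucleotides and polyamines. They were chosen by gene symbol from a list of 51 names, and all 51 were found among the 42748 genes of the deposited RPKM table and the 50686 genes of the deposited count table. Of these, 37 encode nucleolar factors, 12 encode enzymes of purine and pyrimidine synthesis, and 2, Odc1 and Srm, encode enzymes of polyamine synthesis. All 51 passed the filter on low counts. The cells were RAW264.7, a transformed mouse macrophage line that forms osteoclasts when given the cytokine RANKL. The labels also name bone marrow as the source, whereas the cell line field names RAW264.7. Cells received RANKL (50 ng per ml) plus the BET bromodomain inhibitor I-BET (500 nM), RANKL alone or I-BET alone for 4, 14 or 24 hours, and untreated cells were taken at hour 0. Each of these 10 groups held 2 libraries of poly(A)-selected RNA, and nothing in the labels says that they came from separate cultures, so p-values measure only the spread between these libraries. Untreated cells exist only at hour 0, so a change against them holds both the treatment and the hours in culture, which cannot be told apart.

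Ribosomes are assembled in the nucleolus. RNA polymerase I transcribes the ribosomal RNA precursor there. Small nucleolar ribonucleoproteins (snoRNPs) modify the precursor, those of the box C/D kind by methylation and those of the box H/ACA kind by pseudouridylation. The small subunit processome and a series of assembly factors then cleave it and fold it into the 40S and 60S subunits. Purine and pyrimidine synthesis supplies the nucleotides for this RNA, and polyamines bind RNA and are needed for growth. The transcription factor Myc binds the E-box CACGTG and is known to raise many of these genes in growing cells. BET inhibitors release BRD proteins from acetylated chromatin and are known to lower Myc in several blood cell lines.

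Promoter sequence was taken from RefSeq (build GRCm38.p6) for 44 of the 51 genes, as windows of 300 bases that run from 250 before to 50 after each start site. The E-box CACGTG, which reads the same on both strands, stood in the window of 11 of these 44 genes (25%), against 2187 of 27025 genes in the table (8.1%). By class, it stood in 7 of 32 nucleolar genes (21.9%) and in 4 of 11 nucleotide enzyme genes (36.4%). The 11 genes were Atic, Impdh2, Mybbp1a, Nme1, Nop2, Paics, Pes1, Pno1, Tsr1, Utp20 and Wdr43. The related word CACGCG or its reverse complement CGCGTG stood in 12 of 44 genes (27.3%), against 10.5% of all genes. It was found in 11 of the 32 nucleolar genes and in 0 of the 11 nucleotide enzyme genes. Differences between the classes, or from all genes, were not tested for either word. The 27025 genes include genes not expressed here, and a gene with several windows counts as a match if any of them holds the word. A match is a description of letters in a window, and binding was not measured. The windows of 5 genes that the results below describe in full are shown: Mybbp1a (chr11:72441077-72441376) and Atic (chr1:71556906-71557205), which passed the test of a difference of RANKL effects with and without I-BET at 14 hours but not without most single libraries, Wdr43 (chr17:71615965-71616264) as a processome gene, Impdh2 (chr9:108560186-108560485), as a purine gene that rose with RANKL, and Odc1 (chr12:17544623-17544922), which rose earliest and has no CACGTG here. All 5 lie on the plus strand and are printed 5′ to 3′ with CACGTG in capitals.
Mybbp1a: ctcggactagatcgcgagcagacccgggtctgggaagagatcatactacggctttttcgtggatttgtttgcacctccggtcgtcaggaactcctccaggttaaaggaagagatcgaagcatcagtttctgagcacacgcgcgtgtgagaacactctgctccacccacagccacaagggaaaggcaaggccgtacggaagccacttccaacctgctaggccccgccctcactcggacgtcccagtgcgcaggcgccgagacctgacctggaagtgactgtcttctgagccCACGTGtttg
Atic: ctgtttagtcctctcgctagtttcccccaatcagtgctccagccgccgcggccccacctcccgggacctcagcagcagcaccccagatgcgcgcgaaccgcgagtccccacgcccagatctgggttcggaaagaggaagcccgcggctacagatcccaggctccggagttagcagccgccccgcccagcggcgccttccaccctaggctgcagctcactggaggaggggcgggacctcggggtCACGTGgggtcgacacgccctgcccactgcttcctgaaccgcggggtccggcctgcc
Wdr43: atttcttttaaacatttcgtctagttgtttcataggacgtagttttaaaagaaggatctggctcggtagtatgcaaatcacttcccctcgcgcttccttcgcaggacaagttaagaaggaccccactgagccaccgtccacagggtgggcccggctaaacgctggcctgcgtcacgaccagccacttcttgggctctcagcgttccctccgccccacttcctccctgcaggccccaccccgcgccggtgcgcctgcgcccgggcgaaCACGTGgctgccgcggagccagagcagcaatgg
Impdh2: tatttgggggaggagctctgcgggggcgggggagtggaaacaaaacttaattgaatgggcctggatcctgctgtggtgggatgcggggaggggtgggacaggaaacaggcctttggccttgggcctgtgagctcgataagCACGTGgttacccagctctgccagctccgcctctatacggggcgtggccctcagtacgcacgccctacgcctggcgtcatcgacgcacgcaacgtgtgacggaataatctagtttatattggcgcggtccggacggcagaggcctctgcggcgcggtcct
Odc1: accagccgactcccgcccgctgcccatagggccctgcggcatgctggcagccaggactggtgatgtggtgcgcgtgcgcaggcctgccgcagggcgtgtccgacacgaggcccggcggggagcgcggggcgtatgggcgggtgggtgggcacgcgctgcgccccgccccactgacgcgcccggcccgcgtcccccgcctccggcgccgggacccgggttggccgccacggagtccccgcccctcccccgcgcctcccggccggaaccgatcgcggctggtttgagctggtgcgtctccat
With the start site counted as 0, CACGTG began at position 40 in Mybbp1a, at -7 in Atic, at 17 in Wdr43 and at -110 in Impdh2. The Odc1 window held CACGCG, or its reverse complement, at -180 and -101. The windows shown were chosen and do not represent the 44 genes. Mrto4, Ifrd2, Gart, Polr1b, Prps1, Dkc1 and Noc2l, also described below, had no CACGTG. Of the 11 genes with it, Nme1, Paics and Pes1 were not called with RANKL at 14 hours, and the others were. Whether CACGTG goes with a change was not tested.

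Library totals ran from 19051780 to 62313792 counts. In untreated library 2, 8 genes grouped as rRNA-related, not all of them derived from rRNA, took 8.83% of the counts, whereas they took 0.123% to 0.754% elsewhere. Every comparison with untreated cells rests on this library and untreated library 1, the smallest. Levels below are deposited RPKM divided by the library's TMM factor, which scales libraries to a common composition, and a level is relative to the other transcripts of its library. A change is given on the log2 scale with its SE (standard error) by edgeR's quasi-likelihood test, n = 2 libraries a group, and a gene is called at an adjusted p under 0.05 over all 16042 genes tested. Library numbers 1 and 2 recur in every group, and libraries of the same number deviated together. A second fit therefore took the library number as a block (the blocked fit). It is given where it moves a count by more than 1.5 times, and for some but not all genes whose call it changes. The macrophage markers Adgre1 (Emr1 in the files), Cd68, Cd14, Csf1r, Itgam, Lyz2, Spi1 and Ptprc all had counts in every library. Among markers of other cell types, Ms4a1 had 0 counts in all 20 libraries, Cd3e, Epcam and Krt8 had 0 in 18, and Cdh5 had 2 to 15 counts a library.

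The 51 genes spanned a wide range of levels per length. Npm1, a nucleolar histone chaperone, averaged 1115 RPKM over the 20 libraries, and nucleolin (Ncl), the main nucleolar RNA-binding protein, averaged 344 RPKM. At the other end, Wdr74, a 60S assembly factor, had 1 to 14 counts a library and 96 in all. It is left out of medians of levels and of the figures for that reason. Together the 51 genes took 1.59% and 1.60% of all counts in the 14-hour RANKL plus I-BET libraries, 2.09% and 2.04% with RANKL, 1.49% and 1.45% with I-BET, and 1.51% and 1.34% in untreated cells, the lowest share being that of untreated library 2. Both RANKL libraries thus stood above the 6 others.

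**Figure D1:**
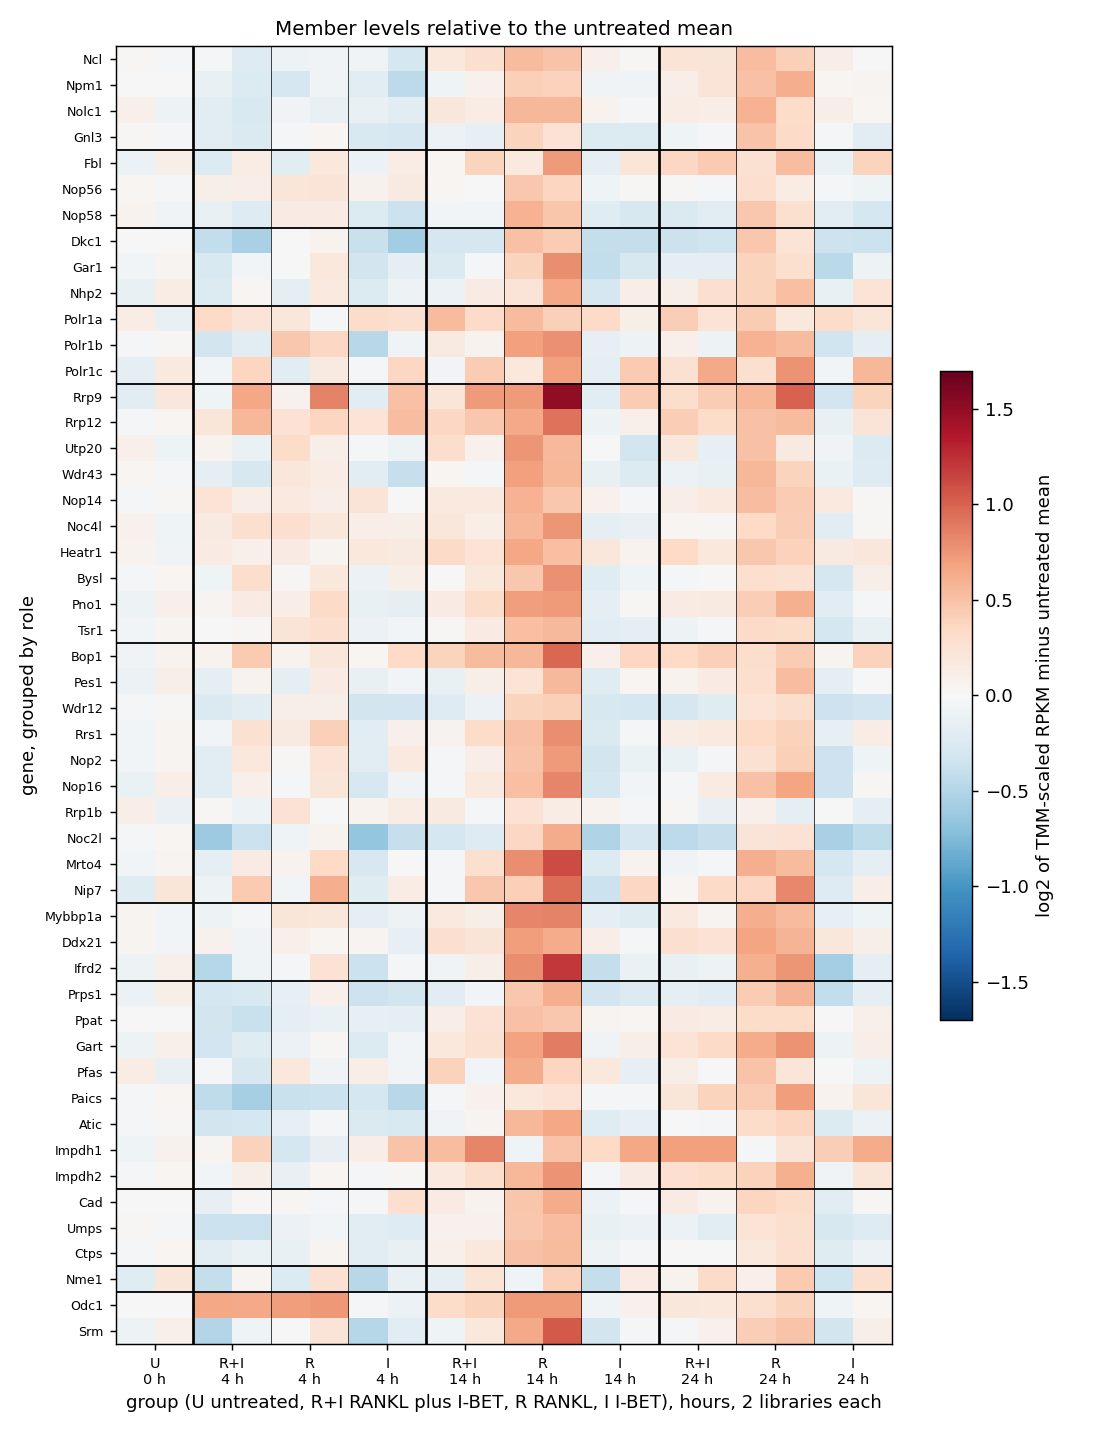
Level of 50 members in each of the 20 libraries, as log2 of TMM-scaled RPKM minus the untreated mean, with genes in rows grouped by role and groups in columns (2 libraries each). Red marks levels above the untreated mean and blue levels below it, and the columns of RANKL at 14 and 24 hours are red for most genes, whereas at 4 hours Odc1 is the row that is strongly red in both RANKL libraries, with and without I-BET, and Rrp9 is so in library 2 of those groups.

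Myc itself was measured at 70.7 and 55.7 RPKM after 4 hours of RANKL, 86.7 and 85.6 after 14 hours and 53.5 and 45.2 after 24 hours, against 6.5 and 3.06 in untreated cells. Its log2 change with RANKL was 3.75 (SE 0.34, adjusted p = 4.79e-05) at 4 hours, 4.20 (SE 0.35, adjusted p = 3.04e-06) at 14 hours and 3.39 (SE 0.34, adjusted p = 7.89e-06) at 24 hours. The RANKL libraries did not overlap with untreated ones at any hour. From 4 to 14 hours of RANKL the change of Myc was 0.45 (SE 0.30, adjusted p = 0.362), or 0.47 (SE 0.17, adjusted p = 0.0435) in the blocked fit, with both 14-hour libraries above both 4-hour ones. From 14 to 24 hours it was -0.80 (SE 0.30, adjusted p = 0.213), or -0.82 (SE 0.17, adjusted p = 0.00583) in the blocked fit. In RANKL plus I-BET, Myc was at 2.15 and 1.78 RPKM after 4 hours, 0.714 and 0.275 after 14 hours and 0.187 and 0.089 after 24 hours. With I-BET alone it was at 0.33 and 0.258, 0.058 and 0.067 and 0.064 and 0.054 RPKM at the same hours. All 12 libraries with I-BET lay below both untreated libraries. The Myc libraries fall into separate groups, high with RANKL and low with I-BET, so no correlation with the 51 genes over all libraries is given.

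At 4 hours, when Myc was already high, RANKL had raised 1 of the 51 genes. That gene was Odc1 (chr12:17544873-17551502, build mm10 as for all gene positions below), ornithine decarboxylase, the rate-limiting enzyme of polyamine synthesis. Odc1 was at 158 and 162 RPKM with RANKL, against 96.9 and 96.6 RPKM in untreated cells. The groups did not overlap, and Odc1 rose by 0.72 (SE 0.08, adjusted p = 0.00012). Over all genes tested, 2.08% were called higher and 1.83% lower in this comparison, so a count of 1 of the 51 genes is near the background. The median change was 0.12 over the 37 nucleolar genes, of which 30 had a positive value, and -0.05 over the 12 nucleotide enzyme genes, of which 10 had a negative one, against 0.01 over all genes tested. Whether the classes differ was not tested. The lowest value was that of Paics, a bifunctional enzyme of purine synthesis, which was at 95.4 and 95.9 RPKM with RANKL and 121 and 127 in untreated cells (-0.38, SE 0.11, adjusted p = 0.0679). The blocked fit called 11 of the 51 higher and Paics lower (-0.37, SE 0.09, adjusted p = 0.00417), where 14.5% of all genes passed, and DESeq2 called 3 higher and 1 lower.

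By 14 hours 39 of the 51 genes had risen with RANKL and none had fallen, where 8.31% of all genes tested were called higher and 10.1% lower. The median change was 0.60 over the nucleolar genes (29 of 37 called), 0.51 over the nucleotide enzymes (8 of 12 called) and 0.79 over Odc1 and Srm (both called), against 0.03 over all genes. In these bulk samples, fewer cells of a type and less RNA per cell cannot be told apart. The summed level of the 8 macrophage markers was 4078 to 5065 CPM (counts scaled to library size) in the 14-hour RANKL libraries, against 8656 to 8848 in untreated ones, and 5 of the 8 were called lower and 1 higher. The part of this shift in the result was not tested. Without single libraries the count was 28 to 36, and it was 23 in a fit of the 4 libraries compared alone.

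All 4 scaffold and chaperone genes were called higher at 14 hours. Nolc1, a chaperone that links snoRNPs to the polymerase I machinery, was at 146 and 146 RPKM with RANKL, against 105 and 93.3 in untreated cells, and rose by 0.56 (SE 0.09, adjusted p = 0.000867). Its groups did not overlap. Gnl3 (nucleostemin), a nucleolar GTPase, was at 175 and 159 RPKM with RANKL and 137 and 133 in untreated cells and had the smallest change of the 4 (0.31, SE 0.08, adjusted p = 0.0168). Among the snoRNP proteins, 2 of 3 box C/D genes and 2 of 3 box H/ACA genes were called. Nop58, a core protein of box C/D snoRNPs, was at 49.9 and 45.8 RPKM with RANKL and 34.5 and 31.7 in untreated cells and rose by 0.53 (SE 0.09, adjusted p = 0.000911). Gar1, a core protein of box H/ACA snoRNPs, was at 51 and 67.8 RPKM with RANKL and 37.9 and 40.7 in untreated cells and rose by 0.60 (SE 0.15, adjusted p = 0.0138). Gar1 libraries of 1 group lay further apart than those of Nop58. The Gnl3 call was lost without either untreated library or RANKL library 1, and the Gar1 call without either untreated library or RANKL library 2 (adjusted p without single libraries 0.0233 to 0.165 and 0.00716 to 0.179). The uncalled snoRNP genes were Fbl, the methyltransferase of box C/D snoRNPs (0.47, SE 0.22, adjusted p = 0.182), and Nhp2 (0.45, SE 0.19, adjusted p = 0.125). The blocked fit called both (adjusted p = 0.000242 and 7.48e-05).

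Of the 3 RNA polymerase I subunits, Polr1a and Polr1b rose. Polr1b, the subunit next in size to Polr1a, was at 20.4 and 21.7 RPKM with RANKL, against 12.5 and 12.8 in untreated cells, and rose by 0.74 (SE 0.12, adjusted p = 0.000677). Polr1c, which polymerase III also uses, was not called (0.45, SE 0.29, adjusted p = 0.353; adjusted p = 0.000153 in the blocked fit). In the small subunit group 9 of 10 genes rose. Rrp12, an export and maturation factor, was at 27.7 and 33.6 RPKM with RANKL and 17.4 and 18.1 in untreated cells and rose by 0.79 (SE 0.15, adjusted p = 0.00189). Pno1, a late 40S assembly factor, was at 83.9 and 85.2 RPKM with RANKL and 48.4 and 54.6 in untreated cells and rose by 0.71 (SE 0.11, adjusted p = 0.000356). Neither gene's groups overlapped. The remaining gene, Rrp9, a U3 snoRNP protein, had the largest value of all 51 but missed the threshold (1.15, SE 0.38, adjusted p = 0.05), with 28 and 48.4 RPKM in the RANKL libraries and 15 and 19.4 RPKM in untreated ones. It passed in the blocked fit (1.12, SE 0.13, adjusted p = 3.32e-06).

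In the 60S group 7 of 11 genes rose. Mrto4, a factor of 60S assembly related to the ribosomal stalk protein P0, was at 55.4 and 68.8 RPKM with RANKL, against 31 and 33 in untreated cells, and rose by 0.96 (SE 0.16, adjusted p = 0.000766). Bop1, which forms a complex with Pes1 and Wdr12, was at 79.4 and 105 RPKM with RANKL and 51.6 and 55.9 in untreated cells and rose by 0.78 (SE 0.17, adjusted p = 0.0055). Both RANKL libraries of each gene exceeded both untreated ones, but the Bop1 call was lost without untreated library 1 or RANKL library 2 (adjusted p 0.0055 to 0.0804 without single libraries). Of the Bop1 partners, Wdr12 rose by 0.39 (SE 0.07, adjusted p = 0.00151) and Pes1 was not called (0.40, SE 0.15, adjusted p = 0.0796; adjusted p = 6.74e-05 in the blocked fit). Rrp1b, Wdr74 and Nip7 were not called either. All 3 of the remaining nucleolar genes rose. Ifrd2, which binds inactive ribosomes in mammalian cells, was at 61.7 and 81.9 RPKM with RANKL and 33.5 and 38 in untreated cells. Mybbp1a, a nucleolar repressor of transcription that also takes part in rRNA processing, was at 162 and 163 RPKM with RANKL and 94.6 and 88.2 in untreated cells, and rose by 0.83 (SE 0.08, adjusted p = 7.54e-06). Its libraries lay close together within each group, and the groups were far apart.

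Among the enzymes, 5 of 8 purine genes and all 3 pyrimidine genes rose at 14 hours. Gart, a trifunctional enzyme of purine synthesis, was at 78.2 and 89.1 RPKM with RANKL, against 45.7 and 51.6 in untreated cells, and rose by 0.78 (SE 0.11, adjusted p = 0.00023). Impdh2, the inosine monophosphate dehydrogenase of growing cells that opens the guanine nucleotide branch, was at 131 and 149 RPKM with RANKL and 86.1 and 90.0 in untreated cells and rose by 0.67 (SE 0.12, adjusted p = 0.00104). Cad, which catalyses the opening steps of pyrimidine synthesis, was at 46.4 and 51.8 RPKM with RANKL and 33.2 and 33.6 in untreated cells and rose by 0.56 (SE 0.11, adjusted p = 0.00273). The groups of these 3 genes did not overlap. Of the Gart exon bases, 19.7% lie opposite an antisense gene, and 12.5% of those of Nme1 are shared with another gene on its strand, so both genes' counts are uncertain. The uncalled purine genes were Pfas (0.50, SE 0.17, adjusted p = 0.0557), Paics (0.21, SE 0.11, adjusted p = 0.211) and Impdh1 (0.23, SE 0.19, adjusted p = 0.5). Pfas passed in the blocked fit (adjusted p = 1.75e-05). Nme1, a nucleoside diphosphate kinase, was at 21.1 and 29.4 RPKM with RANKL and 19.2 and 25.7 in untreated cells, with overlapping groups (0.17, SE 0.28, adjusted p = 0.768). Srm, spermidine synthase, was at 176 and 233 RPKM with RANKL and 106 and 120.3 in untreated cells and rose by 0.85 (SE 0.19, adjusted p = 0.00578), a call lost without untreated library 1 or RANKL library 2 (adjusted p 0.00688 to 0.0769 without single libraries). Odc1, at 159.8 and 159.5 RPKM, was close to its level at 4 hours.

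**Figure D2:**
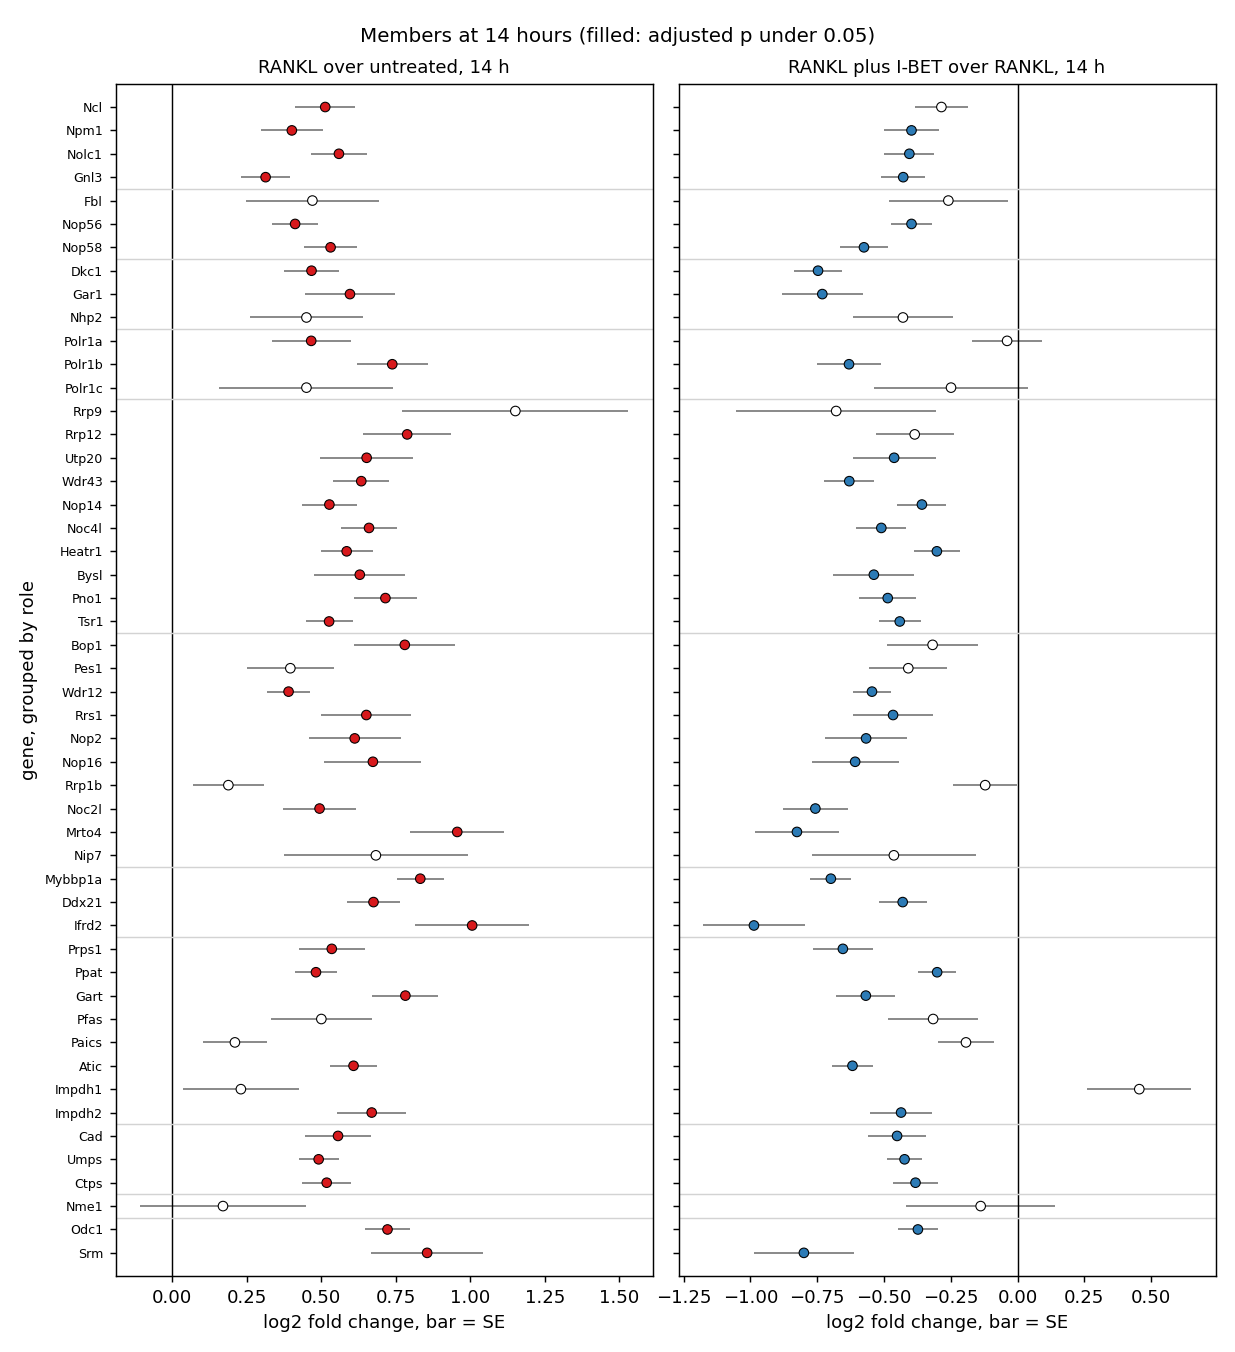
Log2 fold change of 50 members at 14 hours, RANKL over untreated on the left and RANKL plus I-BET over RANKL on the right (bars: SE, n = 2 libraries a group, genes grouped by role); filled points passed an adjusted p of 0.05 in edgeR. The left panel holds positive values only, and in the right panel Impdh1 is the single gene with a positive value. The panels share the RANKL libraries, so they are not independent.

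Directly within the RANKL series, 34 of the 51 genes were called higher at 14 hours than at 4 hours and none lower, where 17.7% of all genes changed. The median change was 0.47 over the nucleolar genes (24 of 37 called) and 0.57 over the nucleotide enzymes (9 of 12 called). Paics was among them, at 139.9 and 147 RPKM at 14 hours and 95.4 and 95.9 at 4 hours. Without RANKL 4-hour library 1 the count was 17, without RANKL 14-hour library 2 it was 21, and it was 7 in a fit of the 4 libraries alone. Between 14 and 24 hours 1 gene was called, where 2.9% of all genes changed: Odc1 was at 117 and 126 RPKM at 24 hours and 159.8 and 159.5 at 14 hours and fell by 0.40 (SE 0.08, adjusted p = 0.0117). That call was lost without either 14-hour library. The blocked fit called 20 genes lower and Paics higher between these hours, where 16.9% of all genes changed.

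At 24 hours 29 of the 51 genes were higher with RANKL than in untreated cells and none was lower, where 8.04% of all genes were called higher and 10.9% lower. Of the 39 genes called at 14 hours, 28 were also called at 24 hours. The median change was 0.42 over the nucleolar genes (20 of 37 called), 0.33 over the nucleotide enzymes (8 of 12 called) and 0.05 over all genes. The addition at 24 hours was Paics, at 167 and 202 RPKM with RANKL and 121 and 127 in untreated cells, which rose by 0.57 (SE 0.11, adjusted p = 0.00161). Npm1 was at 1507 and 1626 RPKM with RANKL and 1062 and 1064 in untreated cells and rose by 0.56 (SE 0.10, adjusted p = 0.00163). Both genes had no overlap between groups. Macrophage markers summed to 3067 to 3523 CPM in the 24-hour RANKL libraries, and their part in the result was not tested. With the block 48 of 51 were higher, where 36.8% of all genes passed in either direction. The count was 15 and 14 without untreated library 1 or 2, 15 without RANKL library 2, and 11 in a fit of the 4 libraries alone.

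**Figure D3:**
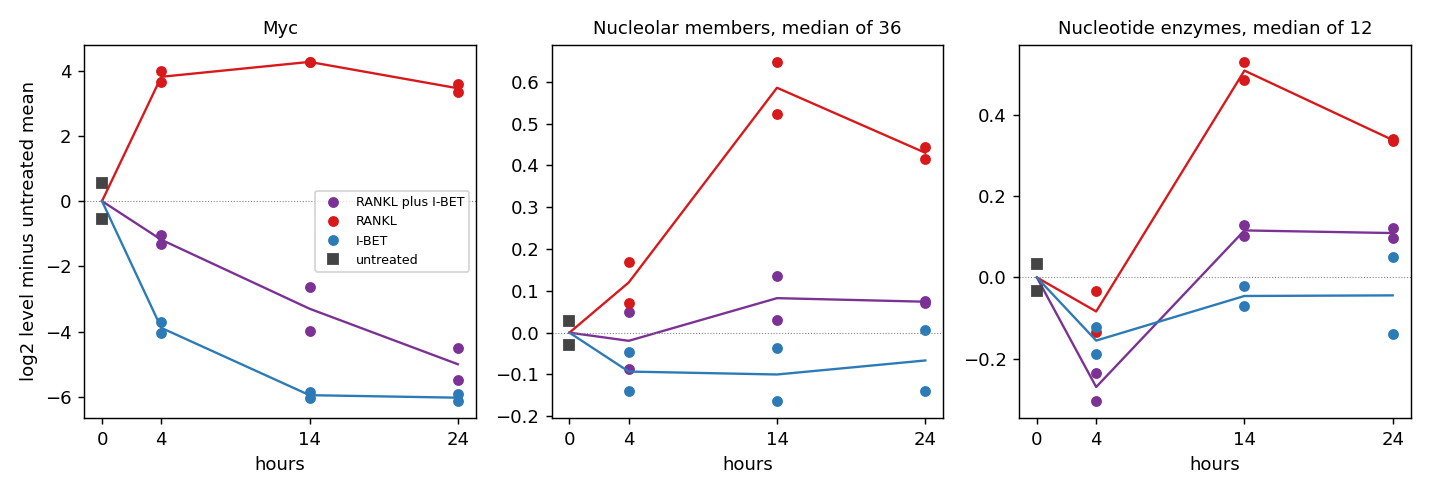
Level over time of Myc, of the nucleolar members (median of 36 genes) and of the nucleotide enzymes (median of 12 genes), as log2 minus the untreated mean, with each library as a point and lines through the means of 2 libraries. Vertical scales differ between panels. Myc is high with RANKL from 4 hours on and far below untreated with I-BET, whereas both class medians rise at 14 hours with RANKL and lie within about 0.3 of the untreated mean in every library with I-BET.

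With I-BET alone few of the 51 genes were called. Against untreated cells 4 were called lower at 4 hours, 3 at 14 hours and 4 at 24 hours, with none higher. Over all 16042 genes tested, 10.5%, 13.7% and 17.7% changed in either direction, and 1039, 1343 and 1636 genes were called lower. The counts of lower genes among the 51 are near that background. Dkc1, Noc2l and Wdr12 were called lower at every hour. Dkc1 (chrX:75095854-75109777), the pseudouridine synthase dyskerin of box H/ACA snoRNPs, was at 49.8 and 43 RPKM after 4 hours of I-BET, 48.7 and 48.8 after 14 hours and 50.7 and 50.1 after 24 hours, against 65.1 and 64.5 in untreated cells. All 6 I-BET libraries lay below both untreated ones, and Dkc1 fell by 0.41 (SE 0.09, adjusted p = 0.00766) at 14 hours. Noc2l (chr4:156236010-156247616), a 60S assembly factor that also inhibits histone acetylation, was at 50.3 and 60.3 RPKM after 4 hours, 55.8 and 65.1 after 14 hours and 53.8 and 58.6 after 24 hours, against 77.3 and 81 in untreated cells. It fell by 0.49 (SE 0.12, adjusted p = 0.0118) at 24 hours. Of its exon bases, 20.9% overlap another gene, and the counting of strand is not given. Wdr12, at 9.27 and 9.45 RPKM after 24 hours and 11.7 and 12 in untreated cells, fell by 0.34 (SE 0.07, adjusted p = 0.00391). The other calls were Paics at 4 hours (-0.39, SE 0.11, adjusted p = 0.0336) and Umps, the last enzyme of uridine monophosphate synthesis, at 24 hours (-0.25, SE 0.07, adjusted p = 0.0199). Paics was at 100.6 and 89.3 RPKM after 4 hours of I-BET, against 120.8 and 127.2 in untreated cells. It was also lower at 4 hours with RANKL (95.4 and 95.9 RPKM) and RANKL plus I-BET (91.9 and 83.8 RPKM). An effect of I-BET on Paics and one of the hours in culture cannot be told apart.

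The medians at 14 hours of I-BET were -0.08 over the nucleolar genes and -0.04 over the nucleotide enzymes, against 0.02 over all genes, while Myc changed by -6.23 (SE 0.49, adjusted p = 3.21e-06). Impdh1, the constitutive paralog of Impdh2, had the highest value of the enzymes with I-BET alone at 14 and 24 hours but was not called (0.52, SE 0.20, adjusted p = 0.0852 at 24 hours). Each of the 11 calls with I-BET alone was lost without at least 1 of the 4 libraries compared. For Dkc1 the adjusted p without single libraries was 0.00727 to 0.0686 at 4 hours, 0.049 to 0.0536 at 14 hours and 0.0633 to 0.0788 at 24 hours. With the block there were 4 higher and 14 lower at 4 hours, 3 and 14 at 14 hours, and 5 and 15 at 24 hours, where 29%, 29.8% and 36.2% of all genes changed. At 4 hours the count was 1 to 2 without any of the 4 libraries, at 14 hours it was 1 without either untreated library and 0 without either I-BET library, and at 24 hours it was 2 and 0 without untreated library 1 or 2 and 1 and 2 without I-BET library 1 or 2.

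Set against RANKL alone, RANKL plus I-BET gave lower levels of 8 of the 51 genes at 4 hours, 35 at 14 hours and 24 at 24 hours. At 4 hours 8 were called lower and 0 higher, where 6.46% of all genes were lower and 4.93% higher. They were Umps, Wdr12, Nop58, Polr1b, Dkc1, Mybbp1a, Wdr43 and Noc2l, and all 8 were also called lower at 14 and 24 hours. The largest of these changes was that of Polr1b, at 10.2 and 11 RPKM in RANKL plus I-BET and 17.4 and 16.1 in RANKL, which fell by 0.66 (SE 0.12, adjusted p = 0.00296). Dkc1 was at 48.4 and 44.3 RPKM in RANKL plus I-BET and 65.2 and 67.6 in RANKL and fell by 0.52 (SE 0.09, adjusted p = 0.00234). The groups of both genes stood apart. With the block 2 were higher and 18 lower, where 28.1% of all genes changed. Without RANKL library 1 or 2 the count was 2, without RANKL plus I-BET library 1 or 2 it was 3 and 4, and a fit of the 4 libraries alone called 0.

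At 14 hours 35 of the 51 genes were lower in RANKL plus I-BET than in RANKL and none was higher, where 11.2% of all genes were lower and 10.8% higher. All 35 were among the 39 that RANKL had raised at 14 hours, a comparison that shares the RANKL libraries. The median change was -0.46 over the nucleolar genes (25 of 37 called), -0.40 over the nucleotide enzymes (8 of 12 called) and -0.59 over the polyamine enzymes (both called), against -0.03 over all genes. Macrophage markers summed to 6044 to 7322 CPM in the RANKL plus I-BET libraries and 4078 to 5065 in the RANKL libraries, with 3 of 8 called higher and 3 lower, and their part in the result was not tested. The count was 22 without RANKL plus I-BET library 1 and 26 to 30 without any of the other 3 libraries. A fit of the 4 libraries alone called 14.

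Box H/ACA genes had a median change of -0.73, the lowest of the roles with 3 or more genes. That is a median of 3 genes, and differences between roles were not tested. Dkc1 was at 53.3 and 53.3 RPKM in RANKL plus I-BET, against 91.8 and 87.2 in RANKL, and fell by 0.75 (SE 0.09, adjusted p = 5.2e-05). Both RANKL plus I-BET values also lay below untreated cells (65.1 and 64.5 RPKM). Gar1 was at 33.2 and 38.3 RPKM in RANKL plus I-BET and 51 and 67.8 in RANKL, and its call was lost without RANKL library 2 (adjusted p 0.00207 to 0.0555 without single libraries). In the other nucleolar roles, Gnl3 was at 126 and 123 RPKM in RANKL plus I-BET and 175 and 159 in RANKL and fell by 0.43 (SE 0.08, adjusted p = 0.00188). Nop58 was at 32.2 and 32.1 RPKM in RANKL plus I-BET and 49.9 and 45.8 in RANKL and fell by 0.57 (SE 0.09, adjusted p = 0.000395). Neither Gnl3 nor Nop58 overlapped between groups. Polr1b, at 14 and 13.2 RPKM in RANKL plus I-BET and 20.4 and 21.7 in RANKL, was the polymerase subunit called, and fell by 0.63 (SE 0.12, adjusted p = 0.00163). The largest subunit, Polr1a, was not (-0.04, SE 0.13, adjusted p = 0.879).

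In the small subunit group 8 of 10 genes fell. Wdr43, a processome protein, was at 81.4 and 78.4 RPKM in RANKL plus I-BET, against 129 and 118 in RANKL, and fell by 0.63 (SE 0.09, adjusted p = 0.00027). Bysl, a factor of 40S maturation, was at 16.9 and 19.3 RPKM in RANKL plus I-BET and 23.4 and 29.3 in RANKL and fell by 0.54 (SE 0.15, adjusted p = 0.0197). Wdr43 libraries with I-BET were tightly grouped, whereas the RANKL libraries of Bysl differed by more, and the Bysl call was lost without RANKL library 2 or RANKL plus I-BET library 1 (adjusted p 0.0196 to 0.225 without single libraries). Among the 60S genes 6 of 11 fell. Mrto4 was at 31.3 and 38.7 RPKM in RANKL plus I-BET and 55.4 and 68.8 in RANKL and fell by 0.83 (SE 0.16, adjusted p = 0.00167). Noc2l was at 64.3 and 67.7 RPKM in RANKL plus I-BET and 101 and 122 in RANKL and fell by 0.76 (SE 0.12, adjusted p = 0.00053). Noc2l, as Dkc1, lay below untreated cells (77.3 and 81 RPKM) in both libraries. The same held for Gnl3 (137 and 133 RPKM in untreated cells) and for Wdr12, at 10.2 and 11.1 RPKM in RANKL plus I-BET and 11.7 and 12 in untreated cells. Ifrd2 had the largest change of the 51, at 34.1 and 38.3 RPKM in RANKL plus I-BET and 61.7 and 81.9 in RANKL, and fell by 0.99 (SE 0.19, adjusted p = 0.00198).

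Of the enzymes, Prps1, which makes the ribose donor of both purines and pyrimidines, was at 49.4 and 54.9 RPKM in RANKL plus I-BET, against 77.7 and 86.4 in RANKL, and fell by 0.65 (SE 0.11, adjusted p = 0.000752). Atic (chr1:71557150-71579631), which catalyses the last steps to inosine monophosphate, was at 28.5 and 30.7 RPKM in RANKL plus I-BET and 44 and 46.9 in RANKL and fell by 0.62 (SE 0.08, adjusted p = 6.51e-05). Cad was at 36.9 and 34.9 RPKM in RANKL plus I-BET and 46.4 and 51.8 in RANKL and fell by 0.45 (SE 0.11, adjusted p = 0.0084). For each of these 3 enzymes the groups did not overlap, but the Cad call was lost without RANKL library 2 or RANKL plus I-BET library 2 (adjusted p 0.023 to 0.102 without single libraries). Srm was at 108 and 127 RPKM in RANKL plus I-BET and 176 and 233 in RANKL and fell by 0.80 (SE 0.19, adjusted p = 0.00701), a call lost without RANKL library 2 or RANKL plus I-BET library 1 (adjusted p 0.00784 to 0.0963 without single libraries). Nme1, at 19.9 and 26 RPKM in RANKL plus I-BET and 21.1 and 29.4 in RANKL, was not called (-0.14, SE 0.28, adjusted p = 0.789), and its groups overlapped.

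Impdh1 and Impdh2 encode enzymes of the same reaction, and at no hour were both called in RANKL plus I-BET against RANKL. Impdh2 was at 98.7 and 108 RPKM in RANKL plus I-BET and 131 and 149 in RANKL at 14 hours, and fell by 0.44 (SE 0.12, adjusted p = 0.0135), a call lost without RANKL library 2 or RANKL plus I-BET library 1 (adjusted p 0.0279 to 0.161 without single libraries). Impdh1 was at 33.2 and 41.1 RPKM in RANKL plus I-BET and 21.9 and 32.3 in RANKL, higher in both libraries with I-BET but not called (0.46, SE 0.19, adjusted p = 0.117; adjusted p = 0.000281 in the blocked fit). At 24 hours Impdh1 was at 37.4 and 37.4 RPKM in RANKL plus I-BET and 22.8 and 26.8 in RANKL and rose by 0.59 (SE 0.19, adjusted p = 0.036). It was the 1 gene of the 51 called higher in RANKL plus I-BET than in RANKL, and the call was lost without any single one of the 4 libraries (adjusted p 0.0516 to 0.197). Impdh2 was at 107 and 109 RPKM in RANKL plus I-BET and 116 and 134 in RANKL at 24 hours and was not called (-0.20, SE 0.12, adjusted p = 0.226; adjusted p = 0.0175 in the blocked fit). The difference between the paralogs was not itself tested.

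At 24 hours 24 genes were lower in RANKL plus I-BET than in RANKL, beside Impdh1 higher, where 12.9% of all genes were lower and 13.9% higher. All 24 had also been lower at 14 hours. The median change was -0.37 over the nucleolar genes (19 of 37 lower), -0.26 over the nucleotide enzymes (5 of 12 lower) and -0.05 over all genes. Nop58 was at 28 and 29.1 RPKM in RANKL plus I-BET and 45.6 and 40.1 in RANKL and fell by 0.59 (SE 0.09, adjusted p = 0.000243). Prps1 was at 50.6 and 49.7 RPKM in RANKL plus I-BET and 76.3 and 83.9 in RANKL and fell by 0.68 (SE 0.11, adjusted p = 0.000439). Both genes had no overlap between groups. Odc1 and Srm were not called, with values of -0.14 (SE 0.08, adjusted p = 0.209) and -0.43 (SE 0.19, adjusted p = 0.109). Macrophage markers summed to 5011 to 5547 CPM in the RANKL plus I-BET libraries and 3067 to 3523 in the RANKL libraries, with 3 of 8 called higher and 2 lower, and their part in the result was not tested. With the block 41 were lower and Impdh1 was higher, where 46.6% of all genes changed. The count of 25 calls became 13 and 14 without RANKL plus I-BET library 1 or 2, and 15 without the filter on low counts.

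With I-BET present, the edgeR fit without the block called 1 of the 51 genes higher with RANKL, again Odc1 and again at 4 hours. The blocked fit and DESeq2 called more of the 51 genes higher at 14 hours, as given below. A gene not called is thus not shown to be unchanged. Odc1 was at 153 and 152 RPKM in RANKL plus I-BET, against 94.2 and 90.1 in I-BET alone, and rose by 0.73 (SE 0.08, adjusted p = 0.000668), where 0.517% of all genes changed. The groups did not overlap. Myc was at 2.15 and 1.78 RPKM in those RANKL plus I-BET libraries and at 0.33 and 0.258 RPKM in I-BET alone. Myc thus rose as well in this comparison, by 2.735 (SE 0.404, adjusted p = 0.00593), while staying below untreated cells. The Odc1 call was lost in a fit of the 4 libraries alone (adjusted p = 0.307). The effect of RANKL on Odc1 at 4 hours differed by 0.00 (SE 0.11, adjusted p = 1) between cells with and without I-BET, which does not show that the effects are alike. By 14 hours Odc1 was at 121 and 126 RPKM in RANKL plus I-BET and 159.8 and 159.5 in RANKL and fell by 0.37 (SE 0.08, adjusted p = 0.00262). Within the RANKL plus I-BET series it was lower at 14 than at 4 hours, by 0.31 (SE 0.08, adjusted p = 0.0206), a call lost without any single one of the 4 libraries (adjusted p 0.0902 to 0.176).

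**Figure D4:**
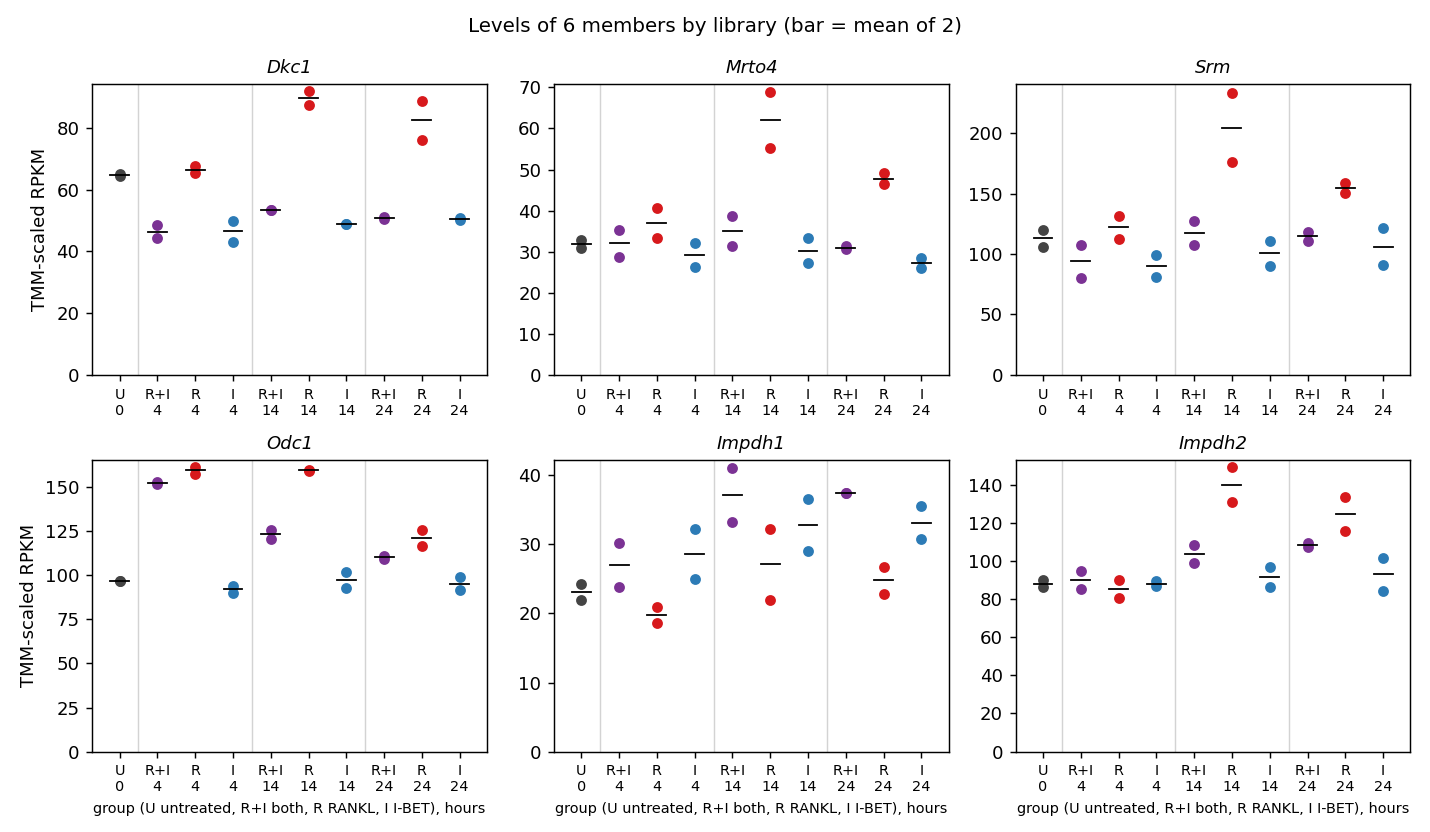
Levels of Dkc1, Mrto4, Srm, Odc1, Impdh1 and Impdh2 in TMM-scaled RPKM, with each library as a point and the mean of 2 libraries as a bar, for untreated cells (U, hour 0) and for RANKL plus I-BET (R+I), RANKL (R) and I-BET (I) at 4, 14 and 24 hours. Odc1 is high at 4 hours in both groups with RANKL, Dkc1 lies below untreated in every group with I-BET, and both Impdh1 points of R+I lie above those of R at 24 hours.

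At 14 hours edgeR called 0 of the 51 genes between RANKL plus I-BET and I-BET alone, where 0.904% of all genes changed. There were 11 at an unadjusted p under 0.05, DESeq2 called 4 higher, and the blocked fit called 14 higher, where 6.58% of all genes changed. The fitted values were positive for 50 of 51 genes, with a median of 0.20 over the nucleolar genes and 0.16 over the nucleotide enzymes. Rrp12 had the highest, with 22.6 and 24.3 RPKM in RANKL plus I-BET and 16.7 and 18.8 in I-BET (0.40, SE 0.15, adjusted p = 0.333). Myc, which is not among the 51, was called higher at 14 hours (2.902, SE 0.601, adjusted p = 0.039) and was not called at 24 hours. At 24 hours edgeR again called 0, where 0.262% of all genes changed, with 5 at an unadjusted p under 0.05, 0 by DESeq2 and 3 higher in the blocked fit, where 2.95% changed. Values of all 51 genes were positive at 24 hours, and their median was 0.14. Over all genes tested the rounded median was -0.0 at 14 hours and 0.0 at 24 hours. The 51 values of a comparison share the same libraries, so their signs are not independent.

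The effects of RANKL on these genes with and without I-BET were compared by a test of their difference, the log2 change of RANKL plus I-BET over I-BET minus that of RANKL over untreated. The RANKL and untreated arms differ in hours in culture, whereas the arms with I-BET share their hour, so a difference cannot be told apart from an effect of those hours. At 4 hours edgeR called 0 of the 51, where 0% of all genes passed, with 1 at an unadjusted p under 0.05, 0 by DESeq2 and 0 in the blocked fit. At 14 hours 2 of 51 passed, where 2.78% of all genes did, a share near the background. Mybbp1a (chr11:72441355-72451768) was at 102 and 98.1 RPKM in RANKL plus I-BET and 81.5 and 79.4 in I-BET, a gap that was wider between RANKL (162 and 163 RPKM) and untreated cells (94.6 and 88.2 RPKM). The 2 effects differed by -0.52 (SE 0.11, adjusted p = 0.0194). Atic was at 28.5 and 30.7 RPKM in RANKL plus I-BET and 25.9 and 27.2 in I-BET, and at 44 and 46.9 RPKM in RANKL and 29.4 and 30.2 in untreated cells. Its effects differed by -0.45 (SE 0.11, adjusted p = 0.0441). All 51 values were negative, with a median of -0.37, but they share the same libraries, so their signs are not independent. The blocked fit called 39, where 11.7% of all genes passed. DESeq2 called 12. Of the 8 macrophage markers, 2 were called in this test at 14 hours and 4 at 24 hours, all with positive values, and their part in the result was not tested. Without untreated library 1 the count was 1, and without any other single library it was 0.

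At 24 hours the difference passed for Ddx21 (chr10:62580248-62602298), an RNA helicase of rRNA transcription and processing, 1 of 51, where 5.25% of all genes passed. Ddx21 was at 153 and 149.9 RPKM in RANKL plus I-BET and 145 and 136 in I-BET, and at 202 and 189 RPKM in RANKL and 130.5 and 123 in untreated cells. The smaller gap was that with I-BET, and the effects differed by -0.52 (SE 0.13, adjusted p = 0.0282). Values of 49 of the 51 genes were negative, with a median of -0.27, again from shared libraries. The blocked fit called 20, where 18.3% of all genes passed. Leaving out single libraries gave 2 without RANKL library 2 and 0 without any of the others, and DESeq2 called 4.

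Changes over time were also tested within the groups that received I-BET. Between 4 and 14 hours of I-BET edgeR called 0, where 5.31% of all genes changed, with 6 at an unadjusted p under 0.05, 2 higher by DESeq2, and 3 higher and 2 lower in the blocked fit, where 20.8% changed. Between 14 and 24 hours of I-BET it called 0, where 0.0374% of all genes changed, with 0 at an unadjusted p under 0.05, by DESeq2 and in the blocked fit. In RANKL plus I-BET 8 genes were higher at 14 than at 4 hours and Odc1 was lower, where 9.4% of all genes changed. These 8 were 6 of the 12 nucleotide enzymes (Umps, Gart, Atic, Ctps, Ppat and Paics) and 2 of the 37 nucleolar genes (Nolc1 and Ncl). The difference between classes was not tested. All 6 enzymes lay below both untreated libraries at 4 hours of RANKL plus I-BET. At 14 hours Umps, Gart, Ctps and Ppat lay above both untreated libraries, and Atic and Paics overlapped with them. Ppat, which commits the cell to purine synthesis, was at 31.7 and 34.6 RPKM at 14 hours and 23.4 and 22.6 at 4 hours and rose by 0.53 (SE 0.07, adjusted p = 0.000388). Paics, whose exons overlap those of Ppat by 272 bases, was at 121 and 130.4 RPKM at 14 hours and 91.9 and 83.8 at 4 hours. Both were higher in both later libraries, and the Paics call was lost without library 2 of either hour. The blocked fit called 23 higher and 1 lower, where 26.2% changed, the counts were 2 to 3 without any of the 4 libraries, and a fit of the 4 libraries alone called 0. Between 14 and 24 hours of RANKL plus I-BET edgeR called 0, where 0.424% of all genes changed, with 2 at an unadjusted p under 0.05, 1 lower by DESeq2, and 1 higher and 1 lower in the blocked fit, where 7.34% changed.

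Some of the 51 genes differed between library 1 and library 2 in the same direction everywhere. Library 2 was the higher of the pair in all 10 groups for 18 genes and the lower in all 10 for 5. The widest gap was in Rrp9 (median log2 ratio of library 2 to library 1 of 0.65), followed by Nip7 (0.48), Nme1 (0.44) and Polr1c (0.44), with Fbl at 0.35. Of the 12 genes not called at 14 hours of RANKL, 8 belonged to these 18, and the blocked fit called 8 of the 12. Nip7, a 60S factor, shows the pattern: 29.7 and 43.3 RPKM with RANKL and 19.5 and 25.9 in untreated cells, where each library 2 exceeded its library 1 (0.68, SE 0.31, adjusted p = 0.157; adjusted p = 3.51e-06 in the blocked fit). By contrast, Mybbp1a, Odc1, Umps and Wdr12 had median ratios within 0.03 of 0.

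The wider pathway was read from 116 other genes in 7 lists, of which 115 were tested. With RANKL 1 was higher and 2 were lower at 4 hours, 63 and 2 at 14 hours, and 53 and 4 at 24 hours. Over all genes tested, 2.08% were higher and 1.83% lower at 4 hours, 8.31% and 10.1% at 14 hours, and 8.04% and 10.9% at 24 hours, so the 4-hour counts are near the background. At 14 hours 22 of 31 other 40S genes, 21 of 32 other 60S genes, 4 of 6 other snoRNP genes and 6 of 12 other polymerase I genes rose and none fell, with medians of 0.42, 0.46, 0.44 and 0.36. Cirh1a (Utp4), a processome protein, rose by 0.86 (SE 0.08, adjusted p = 5.58e-06), and Tcof1 (treacle), a polymerase I cofactor, rose by 0.68 (SE 0.08, adjusted p = 5.32e-05). Of 20 other genes of nucleotide synthesis 8 rose and 2 fell: Shmt1, a serine hydroxymethyltransferase of folate metabolism, rose by 1.10 (SE 0.11, adjusted p = 1.24e-05), and Ctps2, the paralog of Ctps, fell by 0.55 (SE 0.11, adjusted p = 0.00282). Among the 60S genes Eif6, which keeps the subunits apart, rose by 1.11 (SE 0.32, adjusted p = 0.0266), and among the snoRNP genes Ruvbl2, an assembly ATPase, rose by 0.76 (SE 0.16, adjusted p = 0.00501). Nucleotide salvage had 1 of 6 genes higher, the uridine kinase Uck2, with a median of 0.07, and the other polyamine genes had 1 of 8 higher, Sms, with a median of 0.06.

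In RANKL plus I-BET against RANKL, 1 of the 115 was higher and 6 were lower at 4 hours, 3 and 50 at 14 hours, and 7 and 37 at 24 hours, where 6.46%, 11.2% and 12.9% of all genes were lower. Medians at 14 hours were -0.32 over the other 40S genes, -0.37 over the other 60S genes, -0.24 over the other nucleotide genes and -0.03 over salvage. The largest falls in the 40S, 60S and snoRNP lists were those of Nob1 (-0.64), Ebna1bp2 (-0.66) and Ruvbl1 (-0.68). Mthfd2, a mitochondrial folate enzyme, fell by 0.95 (SE 0.10, adjusted p = 1.88e-05). The other polyamine genes did not follow Odc1 and Srm as a group: 3 of 8 rose and 1 fell. Sat1, which breaks polyamines down, rose by 1.09 (SE 0.21, adjusted p = 0.00189), and Sms, spermine synthase, fell by 0.36 (SE 0.08, adjusted p = 0.00535). With I-BET alone 1 of the 115 was higher and 9 lower at 4 hours, 4 and 7 at 14 hours, and 8 and 9 at 24 hours, near the 10.5%, 13.7% and 17.7% of all genes that changed in either direction.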

How the data were processed

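RNA of RAW264.7 cells was sequenced in 20 libraries, 2 for each of 10 groups. The authors deposited raw read counts per gene and RPKM (reads scaled by gene length and library total). Per the submitters' processing notes, FastQC, STAR 2.5.3a, DESeq2 1.16.1 and the builds GRCm38 and mm10 were used, and the tool that counted reads, and how it treated strand, is not given in the sources used here. RPKM could be rebuilt from the counts for 25807 genes with a largest relative deviation of 1.8e-13. Gene symbols came from the files (42745 genes) and from GENCODE M21 (7915 genes), and 26 genes had none. Totals were 19051780 to 62313792 counts per library.

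Counts of all 20 libraries were fitted with edgeR 4.0.16 (R 4.3.3), with TMM scaling, its standard filter on low counts (16042 genes kept), 10 group means and a robust quasi-likelihood test. The residual degrees of freedom were 10. Adjusted p-values (Benjamini-Hochberg) cover all genes tested, and 21 comparisons were made. Alternatives used the library number as a block, DESeq2 1.42.0, limma 3.58.1 on log2 of RPKM plus a pseudocount of 1 or 0.1, other filters and scaling, and fewer libraries. Libraries of the same number deviated together in all 45 pairs of groups (correlation 0.221 to 0.596), so the numbers, which come from the labels, were taken as pairing them. The members, lists and tests were chosen with earlier results of these data known. All 51 genes may be named. Values in every library are given for Myc, Nme1, Odc1, Srm and, by role, the genes with the largest called changes at 14 hours, and a few genes outside this rule (among them Dkc1, Wdr12, Nip7, Paics, Ppat, Rrp9, Npm1, Impdh1 and the genes with a tested difference of effects) were named after their values were seen. Of the other pathway genes, the largest called changes of each list are named. Exons of 24 of the 51 genes share no base with another gene, and Tsr1 (32.3%), Noc2l (20.9%), Gart (19.7%) and Nme1 (12.5%) are among those that share bases, so their counts are uncertain. One marker gene of another cell type is not reported here.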

Additional observations from a re-analysis of the deposited data

Results flagged for a closer look

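The effect of RANKL passed a test of difference between cells with and without I-BET for 3 of the 51 genes, by edgeR's test of the difference itself. That was 2 of 51 at 14 hours, where 2.78% of all genes passed, and 1 of 51 at 24 hours, where 5.25% did. These counts, from the fit without the block, are near or below the background. The blocked fit called more of the 51 at both hours, as given above, where 11.7% and 18.3% of all genes passed. Mybbp1a differed by -0.515 (log2) at 14 hours, Atic by -0.449 at 14 hours and Ddx21 by -0.518 at 24 hours (RANKL plus I-BET over I-BET minus RANKL over untreated). Untreated cells were taken at hour 0, so these values cannot be told apart from an effect of hours in culture. The Mybbp1a difference passed without untreated library 1 and missed the threshold without any other single library (adjusted p = 0.0397 to 0.135). The Atic difference missed it without any single library (0.0918 to 0.21), and the Ddx21 difference passed only without RANKL library 2 (0.0385 to 0.162). All groups held 2 libraries, too few to look for single libraries far from the others.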

How the results depend on the processing

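Counts of the 51 genes called moved by more than 1.5 times under the settings that follow, and 0 of the 196 calls over the 21 comparisons reversed. In that set 88 calls held without each single library and 50 held in every alternative run. With the library number as a block (the paired fit), RANKL against untreated gave 12 at 4 hours and 48 at 24 hours, RANKL plus I-BET against RANKL gave 20 at 4 hours and 42 at 24 hours, and I-BET against untreated gave 18, 17 and 20 at 4, 14 and 24 hours. In that fit RANKL plus I-BET against I-BET gave 14 at 14 hours and 3 at 24 hours, the difference of RANKL effects gave 39 and 20 at those hours, RANKL at 24 against 14 hours gave 21, I-BET at 14 against 4 hours gave 5, and RANKL plus I-BET gave 24 for 14 against 4 hours and 2 for 24 against 14 hours. The block without untreated library 2, chosen after seeing the data, gave 2 for RANKL at 4 hours, 12, 7 and 8 for I-BET at 4, 14 and 24 hours, and 15 and 6 for the difference at 14 and 24 hours. DESeq2 gave 4 for RANKL at 4 hours, 12, 8 and 8 for I-BET, 2 and 4 for RANKL plus I-BET against I-BET at 4 and 14 hours, 12 and 4 for the difference at 14 and 24 hours, 8 for RANKL at 24 against 14 hours, 2 for I-BET at 14 against 4 hours and 1 for RANKL plus I-BET at 24 against 14 hours. Fits of the compared libraries alone gave 23 and 11 for RANKL at 14 and 24 hours, 0 and 14 for RANKL plus I-BET over RANKL at 4 and 14 hours, 0, 0 and 1 for I-BET, 0 for RANKL plus I-BET against I-BET at 4 hours, 7 and 0 for RANKL at 14 against 4 and 24 against 14 hours, and 0 for RANKL plus I-BET at 14 against 4 hours. These fits have fewer samples. Without the filter on low counts there were 2 for RANKL at 4 hours, 3 and 15 for RANKL plus I-BET over RANKL at 4 and 24 hours, 2, 1 and 2 for I-BET, 0 for the difference at 24 hours, 0 for RANKL at 24 against 14 hours and 4 for RANKL plus I-BET at 14 against 4 hours. A filter on CPM gave 2 for RANKL at 4 hours, 1 for RANKL plus I-BET against I-BET at 14 hours, 4 for the difference at 14 hours, 2 for RANKL at 24 against 14 hours and 1 for I-BET at 14 against 4 hours. With limma on log2(RPKM + 1), RANKL at 4 hours gave 3, RANKL plus I-BET over RANKL at 4 hours 5, I-BET at 4 and 14 hours 2 and 1, the difference at 14 and 24 hours 7 and 2, and RANKL at 24 against 14 hours 2. On log2(RPKM + 0.1) the same comparisons gave 2, 5, 2 and 1, 5 for the difference at 14 hours and 2. DESeq2's size factors in edgeR gave 8 for I-BET at 4 hours, and leaving out 8 genes related to ribosomal RNA, chosen after seeing the data, gave 1 for the difference at 14 hours. The cause of these moves was not tested beyond the fewer samples named. Without single libraries the counts were 1 to 1, 28 to 36 and 14 to 21 for RANKL at 4, 14 and 24 hours, 2 to 4, 22 to 30 and 13 to 18 for RANKL plus I-BET against RANKL, 1 to 2, 0 to 1 and 0 to 2 for I-BET, 1 to 1, 0 to 0 and 0 to 0 for RANKL plus I-BET against I-BET, and 0 to 0, 0 to 1 and 0 to 2 for the difference. For RANKL they were 17 to 29 at 14 against 4 hours and 0 to 1 at 24 against 14 hours, for I-BET 0 to 0 in both steps, and for RANKL plus I-BET 2 to 3 and 0 to 0. Where only 1 library of a group was left, it was assumed to vary like the other groups.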
